A study of Mus musculus with 7 samples.

Results

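The proteasome and MHC class I processing genes measured here are 49 of the 18198 named genes on the array. They were chosen by gene symbol: every symbol of the annotated table that begins with Psma, Psmb, Psmc, Psmd, Psme, Psmf or Psmg, together with B2m, H2-K1, H2-D1, Tap1, Tap2, Tapbp and Erap1. The table holds 53 such probe sets, and for the 4 genes with a second probe set the brighter one was used. No symbol in that table begins with Psmg, and none reads Erap1. Those genes are listed there under older symbols, and 5 genes fit the rule only by their current symbol (Erap1, Psmg1, Psmg2, Psmb11 and Psme3ip1). They are described apart and are not in the count of 49. Psmc3ip fits the rule by its first letters, but it is known as a partner of the recombination machinery and is no proteasome subunit.

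The cells are eosinophils isolated by cell sorting out of BALB/c mouse lung. Before the sort the lung had received either saline, the control (4 libraries), or OVA, short for the egg white protein ovalbumin, as an allergen (3 libraries). Age, sex, dosing, and whether a library came from 1 animal or a pool are not given in the labels, so that the p-values speak of the spread among these 7 samples alone, and that spread may be technical. Levels are on the log2 scale, a positive difference means a higher level in OVA, and SE is the standard error of the difference.

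The proteasome is the protease that cuts proteins tagged with ubiquitin into peptides. Its core particle, the 20S proteasome, is a barrel of outer alpha rings and inner beta rings, and 3 kinds of beta subunit carry the cutting sites. A 19S cap with a ring of ATPases unfolds the tagged protein and feeds it in. Immune cells, and other cells exposed to interferon-gamma, exchange the cutting subunits for Psmb8, Psmb9 and Psmb10, which gives the immunoproteasome. Peptides made in this way are carried into the endoplasmic reticulum by Tap1 and Tap2, trimmed by Erap1, and loaded onto class I molecules, which show them to CD8 T cells.

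Promoters of 5 of these genes are shown, since they were searched for motifs through which interferons and the proteasome stress response are known to act. B2m and Psmb8 belong to class I presentation, Tap1 shares its promoter with Psmb9, and Psmd4 and Psme4 are proteasome genes for which every OVA library lay above every saline library. Of the 6 genes with that pattern these 2 were picked after the search because they hold an interferon or antioxidant element match. Psma3, Psmc2 and Psmd11 hold neither of these nor a gamma-activated site in their windows, and the promoter of Psmd7 was not analysed here. Each sequence is the RefSeq window of build GRCm38.p6 from 250 bases before to 50 bases after the start site, read 5′ to 3′ on the strand of the gene. Capitals mark matches, on either strand, to the interferon-stimulated response element (GAAA, any 2 bases, GAAA), the gamma-activated site (TTCNNNGAA), the antioxidant response element (TGACNNNGC, the kind of site bound by Nfe2l1 and Nfe2l2), the CCAAT box and the ETS site (CCGGAAG).
B2m: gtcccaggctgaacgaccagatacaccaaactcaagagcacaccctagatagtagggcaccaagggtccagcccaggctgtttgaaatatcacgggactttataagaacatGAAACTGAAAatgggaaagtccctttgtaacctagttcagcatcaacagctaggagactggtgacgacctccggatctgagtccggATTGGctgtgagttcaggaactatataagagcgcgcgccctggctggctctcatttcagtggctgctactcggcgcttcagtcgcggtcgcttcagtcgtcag
Tap1: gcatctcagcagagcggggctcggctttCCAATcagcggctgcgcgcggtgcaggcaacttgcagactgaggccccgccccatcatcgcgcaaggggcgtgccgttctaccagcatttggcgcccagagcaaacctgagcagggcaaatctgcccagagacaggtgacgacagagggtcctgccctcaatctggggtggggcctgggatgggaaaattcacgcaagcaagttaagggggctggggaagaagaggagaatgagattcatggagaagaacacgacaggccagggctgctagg
Psmb8: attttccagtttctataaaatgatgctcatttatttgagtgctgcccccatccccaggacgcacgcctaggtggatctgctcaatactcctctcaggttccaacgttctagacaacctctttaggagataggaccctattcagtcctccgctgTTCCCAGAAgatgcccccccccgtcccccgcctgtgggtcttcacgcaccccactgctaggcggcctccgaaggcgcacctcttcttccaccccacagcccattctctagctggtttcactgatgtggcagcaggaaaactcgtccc
Psmd4: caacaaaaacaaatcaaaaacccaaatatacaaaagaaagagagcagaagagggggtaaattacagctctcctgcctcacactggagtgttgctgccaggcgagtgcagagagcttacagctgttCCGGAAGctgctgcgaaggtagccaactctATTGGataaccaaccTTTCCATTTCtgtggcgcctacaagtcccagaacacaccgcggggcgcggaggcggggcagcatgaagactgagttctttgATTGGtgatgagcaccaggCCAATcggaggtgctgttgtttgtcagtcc
Psme4: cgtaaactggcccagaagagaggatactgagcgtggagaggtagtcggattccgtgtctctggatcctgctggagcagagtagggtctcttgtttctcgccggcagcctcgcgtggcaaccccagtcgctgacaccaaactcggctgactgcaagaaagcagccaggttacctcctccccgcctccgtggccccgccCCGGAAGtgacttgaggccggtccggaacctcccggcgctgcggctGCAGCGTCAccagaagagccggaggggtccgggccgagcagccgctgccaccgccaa

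The B2m window (chr2:122147437-122147736, plus strand) has a response element match at -139 to -130 relative to the start site. The Psmb8 window (chr17:34197945-34198244, plus strand) has a gamma-activated site match at -97 to -89. Tap1 (chr17:34187306-34187605, plus strand) and Psmb9 are read from opposite strands, and 275 of the 300 bases of their windows are the same stretch. That stretch holds a CCAAT match and none of the other motifs. In Psmd4 (chr3:95042565-95042864, minus strand) a response element match lies at -80 to -71, and in Psme4 (chr11:30771525-30771824, plus strand) an antioxidant element match lies at -7 to 2.

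Windows were found for 42 of the 49 genes, 46 windows in all. The interferon-stimulated response element was in 5 of the 46 (B2m, Psmb3, Psmd4, Psmd9 and Psme1), against 3.44% of all 32851 RefSeq windows. The gamma-activated site was in 2 of 46 (Psmb8 and Psmd2), against 8.3% of all. The antioxidant element was in 8 of 46 windows, those of H2-K1, Psmb5, Psmb6, Psmc6, Psmd12, Psmd9 and Psme4, against 12.39%. CCAAT was in 20 of 46, against 37.41%, and the ETS site in 14 of 46, against 8.86%. A match describes letters in this window and is not a measured binding site. No motif overlapped another in the 5 windows shown.

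None of the 49 genes differed between OVA and saline past the test. With limma, calling a gene where its Benjamini-Hochberg adjusted p was under 0.05, 0 of 49 were higher and 0 lower, whereas 6.43% of all genes were called, 5.27% higher and 1.16% lower. At an unadjusted p under 0.05 there were 10 of 49, against 20.8% of all genes. Among the 4305 genes with a mean log2 level of 8 or more, to which 42 of the 49 belong, 14.5% were called and 35.2% had an unadjusted p under 0.05, the latter against 9 of the 42. The smallest adjusted p by limma was 0.102, that of Psmd11. The 49 differences ran from -0.30 for Psme3 to 0.63 for Psmd7, with a median of 0.14, and the median of all genes was -0.07. For 48 of the 49 genes the 95% interval lay within a 2-fold change in either direction, Psmd7 being the exception, and for 25 it lay within a 1.5-fold change. In sorted bulk samples, fewer cells of a type and less RNA per cell cannot be told apart.

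**Figure D1:**
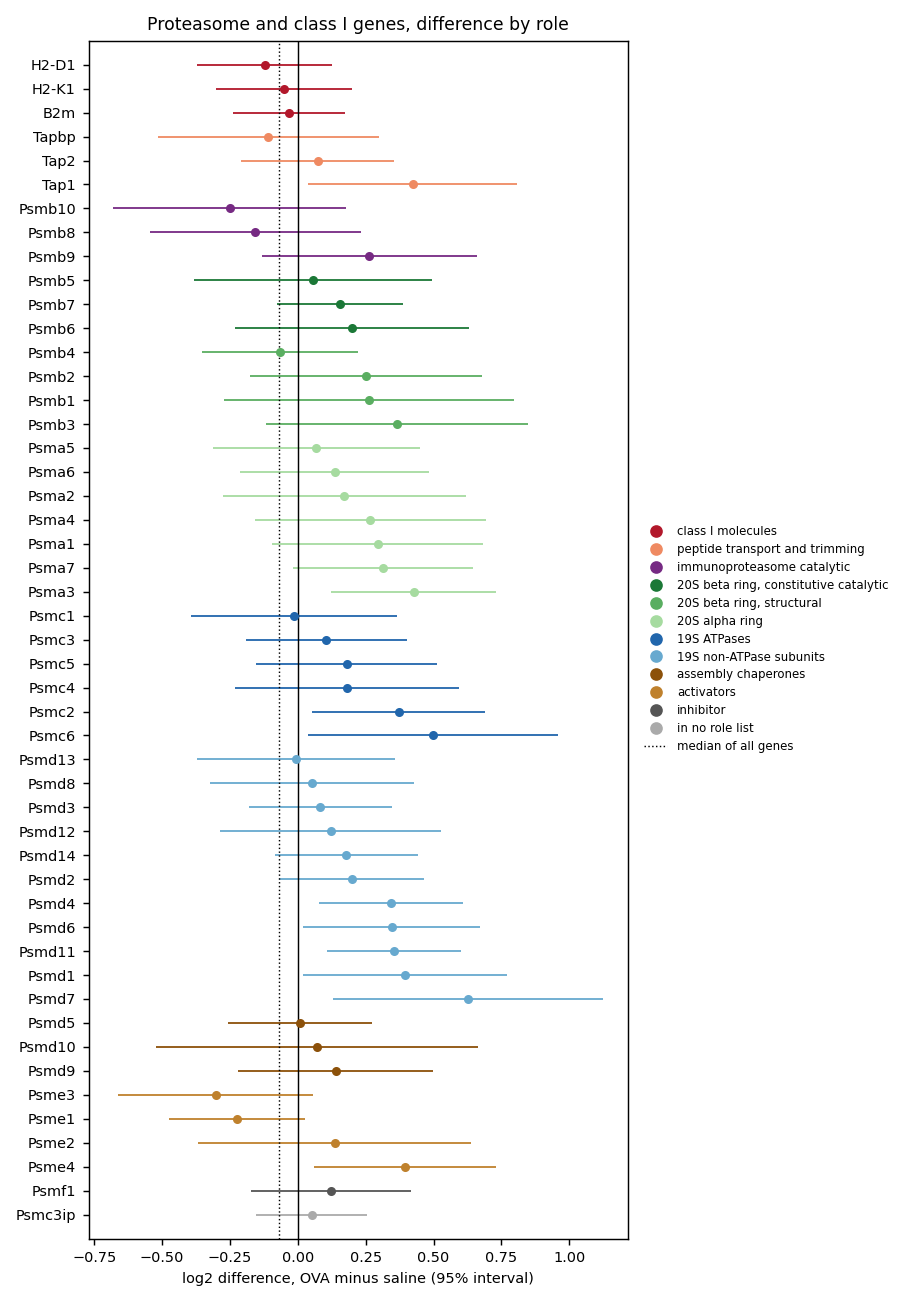
The points give the log2 difference of each of the 49 genes (OVA minus saline) with its 95% interval, ordered and coloured by role; the dotted line is the median of all genes at -0.07. Intervals of 39 genes include 0, and the 3 class I molecules lie between -0.12 and -0.03.

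For the class I molecules themselves no difference passed the test, and their 95% intervals all lay within a 1.5-fold change. B2m, the light chain of every class I molecule, had levels of 12.75, 12.78, 12.71 and 12.73 in saline 1 to 4 and of 12.71, 12.76 and 12.66 in OVA 1 to 3. The 7 libraries thus lay within a narrow band in which the groups overlap, with a difference of -0.03 (SE 0.09, 95% interval -0.24 to 0.17, limma adjusted p = 0.838). The heavy chain H2-K1 was at 9.63, 9.26, 9.51 and 9.43 in saline and at 9.37, 9.42 and 9.43 in OVA. All 3 OVA values lay inside the saline range, and the difference was -0.05 (SE 0.11, limma adjusted p = 0.789).

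H2-D1, the other classical heavy chain on the list, gave 11.28, 10.93, 11.18 and 11.15 in saline and 10.97, 11.07 and 11.00 in OVA. Its OVA values were again inside the saline range, with a difference of -0.12 (SE 0.11, 95% interval -0.37 to 0.13, limma adjusted p = 0.517). Heavy chain genes are close relatives and differ between mouse strains, so probes designed on the reference may report H2-K1 and H2-D1 together with their relatives. H2-Q7, a related heavy chain that is not 1 of the 49, was at 11.62 ± 0.14 (SD, n = 4) in saline and at 11.62 in each OVA library. B2m, at 12.7 where the highest value of the table is 14.0, lies near the top of the scale, where array signals can compress.

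Transport and loading genes showed small differences in both directions. Tap1, which pairs with Tap2 to form the peptide transporter, had levels of 7.32, 6.94, 7.28 and 7.70 in saline and 7.54, 7.83 and 7.83 in OVA. OVA 2 and 3 were above every saline library and OVA 1 was below saline 4, so the groups overlapped. The difference of Tap1, 0.42 (SE 0.17, 95% interval 0.04 to 0.81), was not called (limma adjusted p = 0.201).

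Tap2 was at 7.62, 7.52, 7.64 and 7.93 in saline and at 7.66, 7.70 and 7.89 in OVA, with a difference of 0.07 (SE 0.12, limma adjusted p = 0.731). Tapbp encodes tapasin, which holds empty class I molecules at the transporter. It gave 9.52, 8.71, 9.22 and 9.33 in saline and 8.97, 9.24 and 9.05 in OVA, a difference of -0.11 (SE 0.18, limma adjusted p = 0.721). Here the saline libraries alone spanned more than the OVA libraries, which all lay within the saline range. Erap1, the trimming peptidase that the annotated table lists as Arts1, was at 7.19, 7.17, 7.71 and 7.96 in saline and at 7.56, 8.07 and 7.83 in OVA. Its difference was 0.31 (SE 0.21, limma adjusted p = 0.401), and saline 4 lay above OVA 1 and 3.

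Of the 3 immunoproteasome subunits, Psmb8 and Psmb10 had lower means in OVA and Psmb9 a higher one, none past the test. Psmb8, the chymotrypsin-like subunit, was at 9.18, 9.08, 9.68 and 9.62 in saline and at 9.02, 9.26 and 9.42 in OVA, a difference of -0.16 (SE 0.17, limma adjusted p = 0.591). Psmb10, the trypsin-like subunit, was at 8.61, 8.34, 8.99 and 9.16 in saline and at 8.39, 8.48 and 8.70 in OVA, a difference of -0.25 (SE 0.19, 95% interval -0.68 to 0.18, limma adjusted p = 0.448). In both genes saline 3 and 4 stood above every OVA library, while saline 1 and 2 lay among them or close to them.

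Psmb9, which replaces Psmb6 and is read from the promoter shared with Tap1, gave 10.29, 9.96, 10.54 and 10.77 in saline and 10.57, 10.66 and 10.73 in OVA. All 3 OVA values fell between saline 3 and saline 4, and the difference was 0.26 (SE 0.18, limma adjusted p = 0.399). The neighbours Psmb9 and Tap1 had their lowest level in the same library, saline 2, and both had a positive difference. Neither trait was particular to the pair: saline 2 was lowest for 30 of the 49 genes, ties counted, and 38 of 49 had a positive difference.

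The constitutive cutting subunits that these replace had small positive differences. Psmb5 was at 9.54, 8.91, 9.72 and 9.77 in saline and at 9.46, 9.51 and 9.65 in OVA, a difference of 0.06 (SE 0.20, limma adjusted p = 0.873). Psmb6 gave 10.24, 9.97, 10.66 and 10.65 in saline and 10.34, 10.56 and 10.84 in OVA, a difference of 0.20 (SE 0.19, limma adjusted p = 0.536). Psmb7 was the steadiest of the cutting subunits, at 10.26, 10.14, 10.35 and 10.32 in saline and at 10.35, 10.39 and 10.53 in OVA, with a difference of 0.16 (SE 0.10, limma adjusted p = 0.394). OVA and saline libraries overlapped in Psmb5 and Psmb6, and in Psmb7 OVA 1 equalled saline 3.

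Within each library, the mean log2 level of Psmb8, Psmb9 and Psmb10 minus that of Psmb5, Psmb6 and Psmb7 was -0.653, -0.547, -0.507 and -0.397 in saline 1 to 4. It was -0.723, -0.687 and -0.723 in OVA 1 to 3. Every OVA library lay below every saline library on this contrast, with means of -0.526 ± 0.106 (SD, n = 4) and -0.711 ± 0.021 (SD, n = 3). The 3 immunoproteasome genes did not move together. Psmb8 and Psmb10 differed by -0.16 and -0.25, but Psmb9 differed by 0.26, against 0.20 for Psmb6, which it replaces. Only the change between groups can be read from the contrast, since probe sets of different genes share no absolute scale. The contrast was formed after values had been seen and was not tested.

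**Figure D2:**
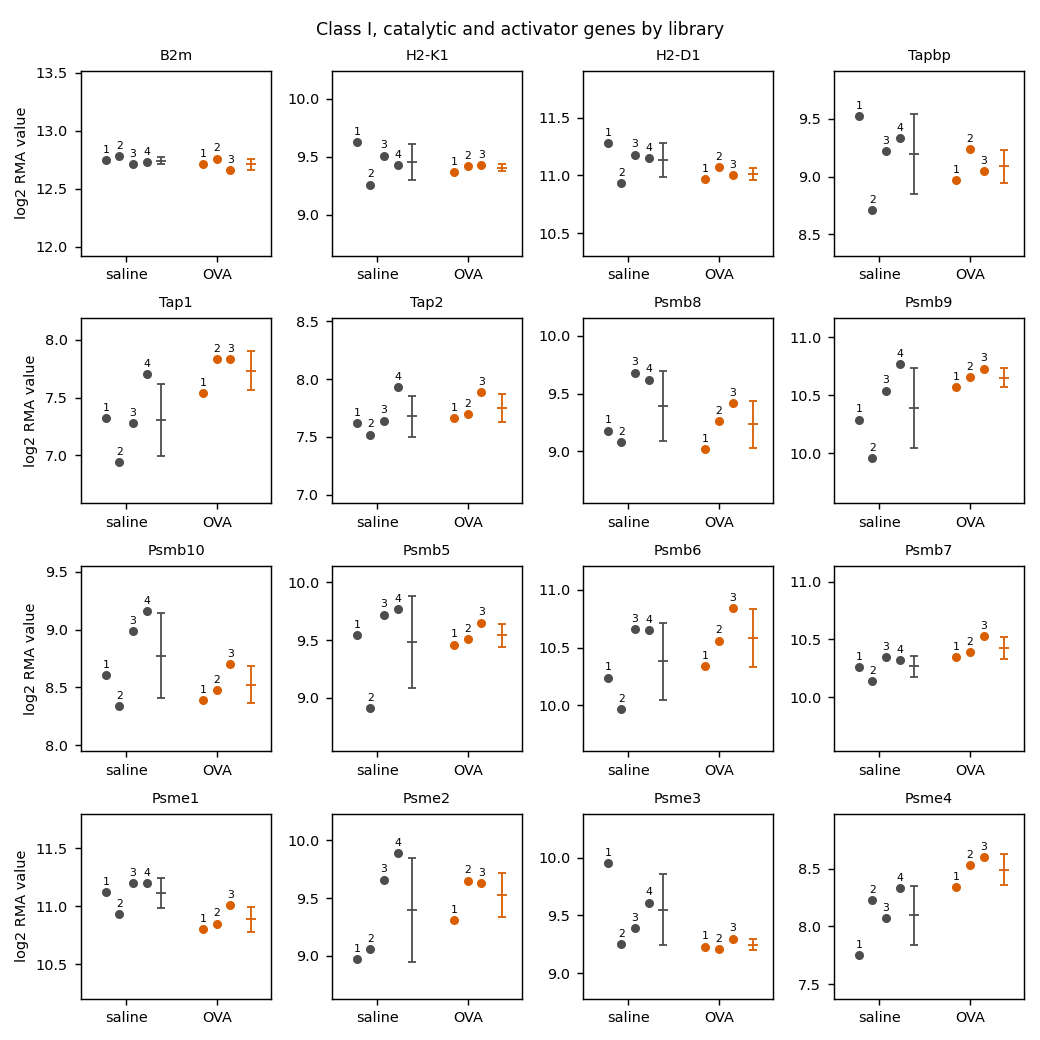
Log2 levels of 16 class I, catalytic and activator genes in each library, with the replicate number above each point and mean ± SD beside it (saline n = 4, OVA n = 3); every panel spans the same height in log2 units. B2m is nearly level across the 7 libraries, and the groups overlap in all panels except that of Psme4.

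Among the structural subunits of the 20S core, differences were mostly positive and none passed the test. All 7 alpha subunits measured had a positive difference, from 0.07 for Psma5 to 0.43 for Psma3, with a median of 0.27. Of genes with a mean level of 8 or more, 63.5% had a positive difference. Psma3 was at 10.88, 11.20, 11.39 and 11.29 in saline and at 11.50, 11.69 and 11.66 in OVA, so that each OVA library exceeded each saline library (SE 0.14, limma adjusted p = 0.108). The brightest alpha subunit probe set, that of Psma6, gave 11.14, 11.21, 11.62 and 11.69 in saline and 11.43, 11.57 and 11.65 in OVA. Its difference was 0.13 (SE 0.16, limma adjusted p = 0.603), and saline 4 was the highest library.

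The remaining beta subunits, Psmb1, Psmb2 and Psmb3, differed by 0.26, 0.25 and 0.37. Psmb4 was at 11.78, 11.66, 12.12 and 12.02 in saline and at 11.83, 11.85 and 11.81 in OVA, a difference of -0.06 (SE 0.13, limma adjusted p = 0.764). The 2 probe sets of Psmb3 differed by 0.37 and 0.30 between groups.

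No gene of the 19S cap was called. Of its 17 measured genes 15 had a positive difference, with a median of 0.18, and 7 of the 17 had an unadjusted p under 0.05 by limma. Among genes with a mean level of 8 or more, 63.5% had a positive difference and 35.2% an unadjusted p under 0.05. Psmd7, a scaffold partner of the deubiquitinase Psmd14, was at 8.50, 7.73, 8.61 and 8.74 in saline and at 9.01, 8.88 and 9.18 in OVA. The groups did not overlap, and the difference of 0.63 (SE 0.22, 95% interval 0.13 to 1.13) had a limma adjusted p of 0.145. Saline 2 was far below the other saline libraries in Psmd7.

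Psmd11, a scaffold subunit of the cap, gave 8.65, 8.66, 8.88 and 8.86 in saline and 9.0, 9.15 and 9.20 in OVA, a difference of 0.35 (SE 0.11, limma adjusted p = 0.102). Psmd4, a receptor for ubiquitin chains, was at 9.10, 8.94, 9.11 and 9.23 in saline and at 9.26, 9.46 and 9.59 in OVA, a difference of 0.34 (SE 0.12, limma adjusted p = 0.14). In both genes the lowest OVA library was only slightly above the highest saline library. Psmd14, which removes ubiquitin chains before a protein is cut, was at 9.74, 9.56, 9.71 and 9.85 in saline and at 9.73, 9.90 and 10.05 in OVA, and its difference of 0.18 was not called (limma adjusted p = 0.392).

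Of the 6 ATPases, Psmc2 was wholly higher in OVA, with 9.55, 9.54 and 9.72 against 9.22, 8.94, 9.24 and 9.53 in saline (difference 0.37, SE 0.14, limma adjusted p = 0.175). There OVA 2 exceeded saline 4 by the last decimal only. Psmc5, the brightest probe set of the ATPases, gave 10.58, 10.11, 10.75 and 10.47 in saline and 10.58, 10.66 and 10.73 in OVA, a difference of 0.18 (limma adjusted p = 0.483). Psmc6 had the largest difference of the ring, 0.50, but OVA 3 lay below saline 4. Both probe sets of Psmc1 gave a difference of -0.01.

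Regulators that bind the core from outside had differences of both signs, none past the test. Psme1 and Psme2 form the activator PA28, which interferon-gamma is known to induce, and Psme3 forms a related nuclear activator. Psme1 was at 11.12, 10.93, 11.20 and 11.20 in saline and at 10.80, 10.85 and 11.01 in OVA, a difference of -0.23 (SE 0.11, 95% interval -0.48 to 0.02, limma adjusted p = 0.28). OVA 1 and 2 were below every saline library, and OVA 3 was above saline 2. Psme3 gave 9.95, 9.25, 9.39 and 9.61 in saline and 9.23, 9.21 and 9.30 in OVA, the lowest difference of the 49 genes at -0.30 (SE 0.16, limma adjusted p = 0.307).

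Psme2 was at 8.97, 9.06, 9.66 and 9.89 in saline and at 9.31, 9.65 and 9.63 in OVA, a difference of 0.13 by its brighter probe set (limma adjusted p = 0.72) and of -0.03 by the other. Both probe sets carry the same accession, and a near-identical gene, Psme2b, is annotated in mouse, so the reading of Psme2 is uncertain. Psme4, the large activator PA200, had levels of 7.75, 8.23, 8.07 and 8.33 in saline and of 8.34, 8.53 and 8.60 in OVA. OVA 1 exceeded saline 4 by the last decimal only, and the difference was 0.39 (SE 0.15, limma adjusted p = 0.17). The inhibitor Psmf1 gave 7.14, 6.85, 6.73 and 7.13 in saline and 6.96, 7.14 and 7.15 in OVA (limma adjusted p = 0.583).

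Chaperones that build the particle were measured in Psmd5, Psmd9 and Psmd10, with differences of 0.01, 0.14 and 0.07. Psmd10, also known as gankyrin, varied widely within saline (SD 0.56, n = 4), at 10.01, 9.86, 11.02 and 10.74, with OVA at 10.32, 10.65 and 10.46 between these pairs. Of the 5 genes that fit the rule only by current symbol, the assembly chaperone Psmg2 was the single gene called. It was at 6.07, 5.54, 5.83 and 5.74 in saline and at 6.27, 6.45 and 6.51 in OVA, and rose by 0.62 (SE 0.14, limma adjusted p = 0.0297). Its saline mean of 5.80 lay under 5.93, the median of the negative control probe sets, so the size of this rise is uncertain. The Psmg2 call was lost when saline 3 was left out (limma adjusted p = 0.0534), and likewise for OVA 1 (0.059), OVA 2 (0.129) and OVA 3 (0.145), with control separation as a covariate (0.0537) and in 1 further setting. Psmg1, its partner, was at 7.34 ± 0.14 (SD, n = 4) and 7.48 ± 0.31 (SD, n = 3), and was not called (limma adjusted p = 0.594). Psmb11, Psme3ip1 and Psmc3ip differed by -0.16, 0.06 and 0.05, none past the test.

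In 6 genes, Psma3, Psmc2, Psmd4, Psmd7, Psmd11 and Psme4, every OVA library lay above every saline library, and in 0 of 49 every OVA library lay below. In Psmc2 and Psme4 the separation was in the last decimal only. Among all genes 11% were wholly above and 8.6% wholly below. Among genes with a mean level of 8 or more the shares were 22.6% above and 7.92% below, against 6 above and 0 below of the 42 proteasome and class I genes at that level. A positive difference was seen for 38 of 49 genes, against 38% of all genes. Since the proteasome and class I genes are mostly bright, the 4305 genes with a mean level of 8 or more are the closer background: 63.5% of those had a positive difference, as did 31 of the 42. Their median differences were 0.11 and 0.175.

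The saline libraries spread more than the OVA libraries. The SD within saline exceeded that within OVA for 43 of 49 genes, with a median SD of 0.28 in saline and 0.12 in OVA, while the same order held for 82.3% of genes with a mean level of 8 or more (median SD 0.25 and 0.13) and for 70.6% of all genes. Saline 2 was the lowest of all 7 libraries for 30 of the 49 genes and saline 1 for 14, ties counted for each, whereas OVA 3 was the highest for 19 and saline 4 for 12. For 34 of 49 genes both saline 1 and 2 lay below both saline 3 and 4, an order seen in 60% of genes with a mean level of 8 or more and in 22.8% of all genes. B2m, H2-K1 and H2-D1 were not among the 34, and all 3 immunoproteasome and all 7 alpha subunit genes were.

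Mean levels over the 49 genes were 9.27, 9.11, 9.50 and 9.57 in saline 1 to 4 and 9.38, 9.54 and 9.61 in OVA 1 to 3. How well positive control probe sets stood apart from negative ones, a quality measure of the array given as the area under the receiver operating curve, ran from 0.8 in saline 2 to 0.852 in OVA 3. Ordered by either measure, the libraries ran saline 2, saline 1, OVA 1 and saline 3, with OVA 3 last, and only saline 4 and OVA 2 exchanged places. The climb was not particular to the 49 genes, since genes with a mean level of 8 or more followed the order of the control measure exactly. Their means were 9.31, 9.18, 9.51 and 9.57 in saline 1 to 4 and 9.44, 9.58 and 9.62 in OVA 1 to 3. With the area under the curve as a covariate, a choice made after the data were seen, the median difference of the 49 genes was -0.01 instead of 0.14. Without saline 1 and 2 together it was -0.02, and without saline 3 and 4 together it was 0.315. The median was 0.07 without saline 2 and 0.09 without OVA 3, and 0.22 without saline 4.

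**Figure D3:**
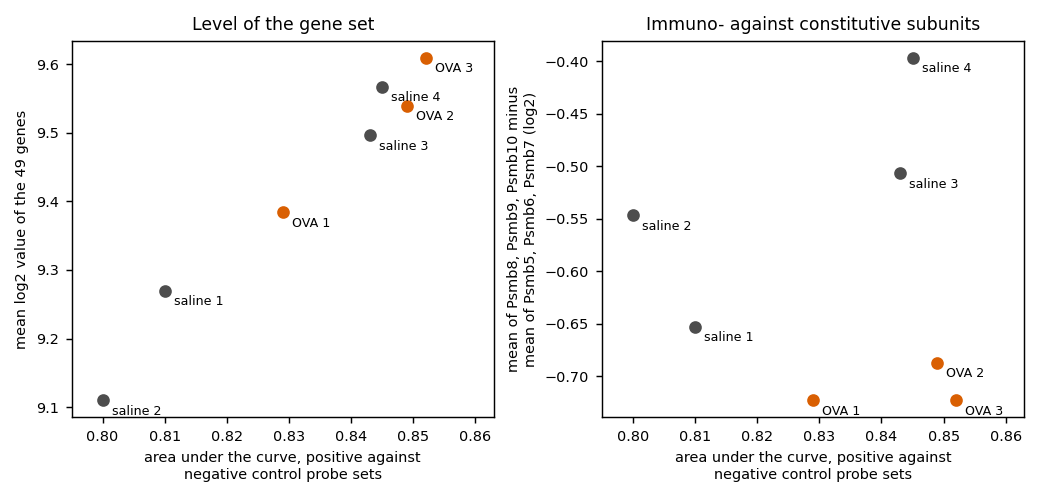
Left, mean log2 level of the 49 genes in each library against the area under the curve for control probe sets; right, the contrast of immunoproteasome against constitutive cutting subunits on the same axis (grey saline, orange OVA). The mean level climbs with the control measure from saline 2 at 9.11 to OVA 3 at 9.61. Genes with a mean level of 8 or more, not drawn, climb between the same libraries from 9.18 to 9.62. In the right panel the 3 OVA libraries lie below all 4 saline libraries.

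Left-out libraries also decided which genes were called. Without saline 3 and 4 together, 16 of 49 were higher by limma, against 12% of all genes in that fit, among them Psma3, Psmb9, Psmc6, Psmd7 and Tap1. For this and the following fits the share among genes with a mean level of 8 or more, the closer background, was not computed. With all 7 libraries 14.5% of those genes were called in either direction, against 6.43% of all genes. Without saline 1 and 2 together 0 were higher and Psmb10 was lower, by 0.55 (limma adjusted p = 0.0463), where 2.22% of all genes were lower. With the control measure as a covariate, Psmb10 (difference -0.54, limma adjusted p = 0.0177) and Psmb8 (difference -0.42, limma adjusted p = 0.0297) were lower and 0 were higher, where 3.06% of all genes were lower. The sign for both genes depended on saline 3 and 4. Without that pair Psmb10 differed by 0.05 and Psmb8 by 0.10 (limma adjusted p = 0.816 and 0.609). Array weights gave 5 of 49 higher (Psma3, Psmd4, Psmd11, Psme4 and Tap1), a share near the 9.05% of all genes in that fit. Leaving out any single library called none of the 49, with a smallest limma adjusted p of 0.0501 to 0.33.

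Outside the 49, a deubiquitinase of the proteasome rose and a stress-induced partner fell. Of 26 measured genes for ubiquitin, proteasome partners and their regulators, 1 rose and 1 fell, with a median difference of 0.14. Among all genes 5.27% were higher and 1.16% lower, and 14.5% of genes with a mean level of 8 or more were called in either direction. Usp14, the deubiquitinase that docks on the 19S cap, was at 6.81, 6.53, 6.64 and 7.55 in saline and at 7.95, 8.20 and 8.11 in OVA. Each OVA library was above each saline library, and Usp14 rose by 1.20 (SE 0.22, limma adjusted p = 0.0126). The Usp14 call was lost on leaving out OVA 2 (limma adjusted p = 0.0676), OVA 3 (0.0705), or the pair of saline 1 and 2 (0.0532).

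Zfand2a, a stress-induced protein that binds the proteasome, fell by 0.64 (SE 0.16, limma adjusted p = 0.0433) from 9.62 ± 0.28 (SD, n = 4) to 8.98 ± 0.15 (SD, n = 3). The Zfand2a call was lost on leaving out saline 2, 3 or 4 (limma adjusted p = 0.0799, 0.0702 and 0.0532), any of OVA 1 to 3 (0.152, 0.118 and 0.141) or the pair of saline 3 and 4 (0.0557), after median centring (0.0905) and under a trended robust variance (0.0557). Nfe2l1, the transcription factor that drives proteasome genes when the proteasome is inhibited, gave 9.15, 8.47, 9.08 and 9.24 in saline and 9.44, 9.56 and 9.55 in OVA. Its difference of 0.53 (SE 0.18, limma adjusted p = 0.125) and that of Nfe2l2, the oxidative stress factor, at 0.56 (SE 0.18, limma adjusted p = 0.105), were not called. In both factors the groups did not overlap.

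Pdia3, Calr and Canx, chaperones that fold class I molecules, rose, while Nlrc5 and Irf1, factors that switch on class I genes, did not pass the test. Of 27 measured partners and regulators of class I, 3 rose and 0 fell, with a median difference of 0.13. The share called higher was 5.27% of all genes, and 14.5% of genes with a mean level of 8 or more were called in either direction. The disulfide isomerase Pdia3, a part of the loading complex, was at 9.32, 9.29, 9.78 and 9.95 in saline and at 10.36, 10.48 and 10.47 in OVA, and rose by 0.85 (SE 0.17, limma adjusted p = 0.0181). Calreticulin, from Calr, was at 8.99, 8.81, 9.40 and 9.34 in saline and at 9.91, 9.97 and 9.97 in OVA, and rose by 0.81 (SE 0.15, limma adjusted p = 0.0131). Calnexin, from Canx, rose by 0.51 (SE 0.12, limma adjusted p = 0.0357). All 3 serve many glycoproteins of the endoplasmic reticulum besides class I.

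For each of these 3 chaperones every OVA library lay above every saline library. The Pdia3 call was lost on leaving out any of OVA 1 to 3 (limma adjusted p = 0.0584, 0.0881 and 0.0932), and the Calr call on leaving out OVA 2 (0.0668) or OVA 3 (0.0705). The Canx call was lost on leaving out saline 1 (limma adjusted p = 0.0748), saline 2 (0.0649), both of these (0.0896), or any of OVA 1 to 3 (0.113, 0.164 and 0.0947), after median centring (0.0508), with control separation as a covariate (0.0595) and in 1 further setting. Nlrc5, the transactivator of class I genes, differed by 0.19 (limma adjusted p = 0.427), and Irf1, an interferon-induced activator, by 0.45 (limma adjusted p = 0.308).

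Genes known to respond to interferon-gamma were also divided, with 3 of 15 higher, 0 lower and a median difference of -0.05. Of all genes 5.27% were higher and 1.16% lower. The chemokine Cxcl10 was at 7.33, 6.61, 7.28 and 7.82 in saline and at 9.34, 9.22 and 9.72 in OVA, with no overlap. Cxcl10 rose by 2.17 (SE 0.25, limma adjusted p = 0.00125) and the adhesion molecule Icam1 by 1.36 (SE 0.24, limma adjusted p = 0.0108). Cd274, which encodes PD-L1, rose by 0.53 (SE 0.13, limma adjusted p = 0.0487). The guanylate-binding proteins Gbp2, Gbp2b, Gbp3, Gbp4 and Gbp5 differed by -0.03, -0.05, -0.21, -0.21 and 0.20, none past the test. The GTPases Igtp and Irgm1 differed by -0.01 and -0.16, Iigp1 by -0.25, Cxcl9 by -0.07 and Wars by 0.19, none past the test. Gbp4 was at 5.02 in saline and 4.81 in OVA, Gbp5 at 4.98 and 5.18, and Iigp1 at 4.7 and 4.5. All of these means were dimmer than 5.93, the middle level of negative control probe sets, so these genes say little about a response. Cxcl10 was called under all 19 alternatives (limma adjusted p = 0.000122 to 0.0122), and the Icam1 call was lost on leaving out OVA 3 (0.0711). The Cd274 call was lost in 11 of 19, among them leaving out saline 1, 3 or 4 (0.0729, 0.0993 and 0.0709) or any of OVA 1 to 3 (0.0648, 0.161 and 0.22).

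**Figure D4:**
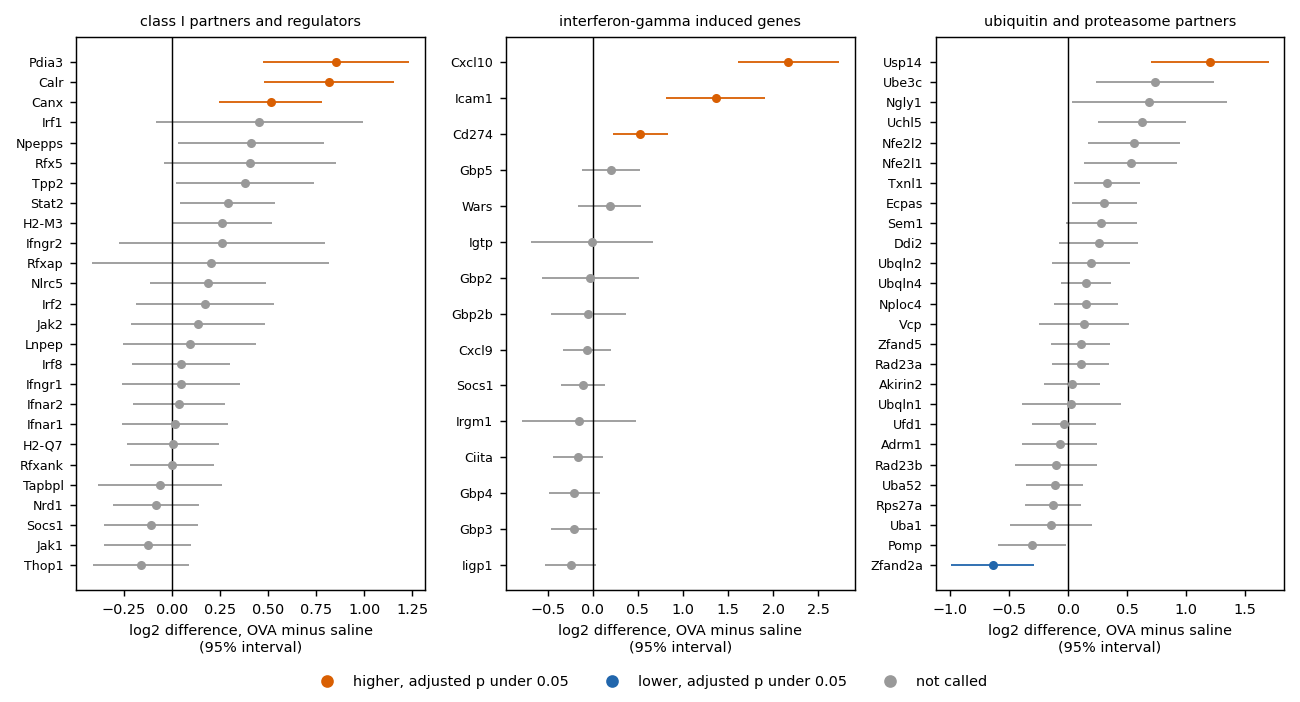
Log2 differences (OVA minus saline, 95% interval) of genes around the proteasome and class I, in 3 lists; orange marks genes called higher and blue the gene called lower. Usp14, Pdia3, Calr, Canx, Cxcl10, Icam1 and Cd274 were higher and Zfand2a was lower, while Nlrc5 and Irf1 were not called.

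Markers of the labelled cell type were present, with Ccr3 at 11.98 ± 0.06 (SD, n = 4) in saline and 11.84 ± 0.12 (SD, n = 3) in OVA and Prg2 at 11.83 ± 0.26 and 13.02 ± 0.13. Of 8 eosinophil markers 4 were higher in OVA and 0 lower, where 5.27% of all genes were higher and 1.16% lower. Of 8 alveolar macrophage markers 5 were higher in OVA, and their mean level ran from 6.35 to 6.67 in saline and from 8.43 to 8.86 in OVA. Those higher were Chil3, by 6.20, Car4, by 5.36, Itgax and Mrc1, each by 2.07, and Pparg, by 1.54. The other 3, Fabp4, Krt79 and Marco, differed by 0.42, -0.11 and -0.19 and were not called, and Marco was at 6.10 in saline and 5.91 in OVA, near the negative control median of 5.93. The mean level of 7 T cell markers was 6.83 to 7.23 in saline and 6.74 to 6.94 in OVA. Of these, Cd3d was at 8.51, 8.87, 9.80 and 9.65 in saline and at 7.71, 8.01 and 8.48 in OVA. The Cd3d difference of -1.14 (SE 0.31) was not called (limma adjusted p = 0.0648), and 2 of the 7 markers had a positive difference. Class I and proteasome genes are expressed by all these cells. By the same fit 0 markers of T cells, B cells, NK cells, dendritic cells, monocytes and endothelium were called. Ltf was higher among 5 neutrophil markers and Sftpc among 6 epithelial markers. Mean levels in saline and OVA were 6.97 and 7.82 for Ltf and 8.1 and 10.7 for Sftpc. The neutrophil marker Retnlg, not called, was at 12.71 in saline and 12.64 in OVA, brighter than Ccr3. Camp, Mmp8 and Elane were at 6.5, 6.1 and 6.2 in saline and at 6.3, 5.9 and 5.9 in OVA. The part of such markers in the results was not tested.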

How the data were processed

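Eosinophil RNA from 7 sorted samples was measured on 1-colour expression arrays, per the labels. The authors deposited RMA values (RMA per the submitters' processing notes), whose range is that of a log2 scale. RMA corrects background, normalizes between arrays and summarises probe sets. RNA was amplified before labelling, per the labels' protocols. RMA is meant to remove a shift shared by all genes of a library, so only changes relative to the rest can be seen, and the number of arrays limits the precision. Of the annotated table, only names and accessions were used. Its 7 value columns match no sample label and were not used.

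Symbols were updated by accession, symbol or synonym through RefSeq (GRCm38.p6, names only), and the brightest probe set over all arrays stood for a gene, with no filter. The 18198 genes were fitted with limma 3.58.1 (R 4.3.3; lmFit, eBayes, group as the only term), 2-sided, with Benjamini-Hochberg adjustment over all genes and calls at 0.05. This fit was tested on simulated data. Alternatives changed the normalization, the filter, the probe set rule, the symbols, array weights, the variance model, the replicate block and the libraries left out. Genes and lists were chosen with earlier results of these data known. Levels per library are given for the catalytic subunits, Psme1 to Psme3 and the class I genes, for the member of each role with the highest mean, and for other members singled out after their values were seen. Of each surrounding list, every called gene, up to 6 in each direction, and 4 regulators are named, and others were added after their values were seen. A further list gene is not reported here. The surrounding lists held 74 entries, of which 68 were measured (Socs1 in 2 lists).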

Additional observations from a re-analysis of the deposited data

Results flagged for a closer look

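Among the 4 saline libraries, Psmd3, a non-ATPase subunit of the 19S cap, was at 6.82 in saline 4, apart from 7.15, 7.13 and 7.10 in saline 1 to 3. It is the single case in 54 genes tested in which a saline library stood apart from the other libraries of its group by Dixon's criterion at the 95% level, and chance alone singles out about 1 group in 20. The criterion was applied to the saline libraries only. Psmd3 differed by 0.08 between groups (limma adjusted p = 0.671).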

How the results depend on the processing

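With all 7 libraries 959 genes were higher and 212 lower by limma, and 0 of the 49 proteasome and class I genes in either direction, with 10 of 49 at an unadjusted p under 0.05. The count of members stayed at 0 and 0 after a second quantile normalization, median centring, cyclic loess, a filter on dim genes, the mean of probe sets, symbols not updated and a trended robust variance. The count of members higher was 5 with array weights, 1 with the replicate block (Psmd7, limma adjusted p = 0.0299), 16 without saline 3 and 4 together, and 1 by current symbols (Psmg2). The count of members lower was 1 without saline 1 and 2 together and 2 with control separation as a covariate. Across all genes, the count lower was 428 after quantile normalization again (with 954 higher), 120 after median centring, 410 after cyclic loess, 404 without saline 1 and 2 together and 556 with the covariate. With array weights 1647 were higher and 676 lower, and without saline 3 and 4 together 2188 and 988. Leaving out each library in turn gave 366 to 1217 genes higher and 67 to 266 lower, the lowest counts being without OVA 3 and OVA 2, and a median member difference of 0.07 to 0.22. Over all alternatives that median ran from -0.02 to 0.315, and the cause was not tested. Replicate numbers are shared by the groups in the labels, and deviations of same-numbered libraries correlated at 0.272, -0.138 and 0.241. OVA 1 correlated best with saline 2, and OVA 2 and 3 with saline 4. Saline 1 and 3, however, correlated best with the OVA library of their own number, so the correlations do not settle the pairing. The numbers are not stated to pair libraries and are not taken as pairs. The replicate block gave 1356 genes higher and 316 lower, and with it Canx (limma adjusted p = 0.0506), Psmg2 (0.0607) and Cd274 (0.0928) were not called.

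Limits: 3 against 4 libraries, and the saline spread, leave changes of 1.5-fold or more inside the 95% interval of 24 of the 49 genes.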
